A study of Rattus norvegicus with 180 samples.

Results

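The microRNAs (miRNAs) of the miR-99, miR-100 and miR-125 families were examined in an expression atlas of rat organs. The members were taken by name from the array design, as rno-miR-99a, rno-miR-99b, rno-miR-100, rno-miR-125a-5p, rno-miR-125a-3p and rno-miR-125b-5p, named below without their prefix, and all 6 were found among the 717 rat miRNAs of the design, with 0 further versions of their probes. Organs came from male Sprague-Dawley rats that were 10 weeks old, with no treatment other than the sampling procedure. From 3 rats perfused with saline before sampling, numbered 4 to 6, 55 organs each were measured. From 3 rats that were not perfused, numbered 1 to 3, 5 organs each were measured (15 arrays), which were the atrium and interventricular septum of the heart, the kidney, the liver and the lung. By the study's list of organs, duodenum, jejunum, ileum, cecum, colon and rectum were sampled as scraped mucosal epithelium and not as whole gut. Each array held total RNA of 1 organ of 1 rat, labeled with a single dye, so that the replicates of an organ were separate animals.

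The miR-99 and miR-100 miRNAs share a seed, which is the stretch near the 5′ end through which a miRNA pairs with messenger RNAs, and the miR-125 miRNAs are the vertebrate relatives of lin-4 of the worm. In vertebrates both families are encoded together with let-7 miRNAs, in several copies of one cluster. The miR-125 miRNAs are known from neuronal differentiation and from the control of blood stem cells, and the miR-99 and miR-100 miRNAs from the regulation of mTOR. A miRNA hairpin yields 2 arms, named -5p and -3p or marked with an asterisk, and usually one of them is kept in larger amounts.

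The mature sequences are shown because the members fall into groups by their seeds (bases 2 to 8 from the 5′ end, in capitals). They were taken from RefSeq (GRCr8), in which 5 of the 6 members had a mature entry. The let-7 miRNA encoded with miR-99b and miR-125a is added for comparison.
miR-99b: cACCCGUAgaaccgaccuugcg
miR-100: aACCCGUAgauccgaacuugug
miR-125a-5p: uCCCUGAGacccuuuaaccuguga
miR-125b-5p: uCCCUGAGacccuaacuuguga
miR-125a-3p: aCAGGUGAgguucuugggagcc
let-7e: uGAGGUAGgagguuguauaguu

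miR-99b and miR-100 shared one seed and differed at 4 of their 22 bases, which were C1A, A11U, C16A and C21U (base of miR-99b, position from its 5′ end, base of miR-100). miR-125a-5p and miR-125b-5p shared another seed, their first 13 bases and their last 5 bases. miR-125a-3p, the opposite arm of the miR-125a hairpin, had a seed that none of the others shown had. The hairpin is shown with both arms in capitals, since the contrast between these arms is described below.
Mir125a: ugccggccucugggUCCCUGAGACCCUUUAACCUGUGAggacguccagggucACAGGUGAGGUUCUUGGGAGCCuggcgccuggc

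The hairpins lie at 3 loci of GRCr8, and at each locus a miR-99 or miR-100, a let-7 and a miR-125 follow in this order. Mir99b, Mirlet7e and Mir125a span 696 bases of chromosome 1 (chr1:67350064-67350759), inside the limits of the protein-coding gene Spaca6. Mir100, Mirlet7a-2 and Mir125b1 span 51828 bases of chromosome 8 (chr8:50798295-50850122) and lie inside the limits of Mir100hgl, annotated as protein-coding, and of the long noncoding gene Lnc215. Mir99a, Mirlet7c1 and Mir125b2 span 45268 bases of chromosome 11 (chr11:29687392-29732659) and lie inside a long noncoding gene. A further annotated miRNA lies inside the first of these spans (Mir3596c) and inside the second (Mir3596a), and Mir3588 overlaps the end of the third. Mature miR-125b-5p comes from Mir125b1 and from Mir125b2, so its signal is the sum of both loci.

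Signals are given as normalized signal intensities, which are the background-corrected intensities of the scanner, averaged over the spots of a miRNA and scaled per array. Detection on an array required that the scanner flagged more than 50% of a miRNA's spots as well above background, and lower values than 10.83 were replaced by this floor. An array had 86 to 244 detected miRNAs and 0 saturated spots. None of the members was among the 37 miRNAs that set the scaling, but let-7a and let-7c, described below, were. The pancreas had the lowest signals before scaling and was multiplied by 24.03, while the rectum was multiplied by 0.7156, and these factors bear on the values of both organs below. For 8 arrays of rat 5 the 2 labels gave different rat numbers, and the number in the sample title was used. They are 1 array each of the medulla, the pituitary gland, the 3 levels of the spinal cord and the 3 limb muscles, and if the other label holds, these organs come from 2 rats and not 3. Without these 8 arrays, the calls of the members in the organ types and between related organs described below were kept, and 235 pairs of member and organ were called against the other organs (237 with them, beside 73.2% and 73.9% of all pairs), with miR-100 at 1.33 between spinal cord and brain, miR-125a-5p at 0.79 between heart and limb muscle and miR-99b at 1.77 in the pituitary gland. Probe affinities differ, so that a signal of one miRNA is not comparable with that of another. The differences below are differences of log2 signal, tested with limma and called at a Benjamini-Hochberg adjusted p below 0.05 over 345 miRNAs.

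Each of the 6 members differed among the 55 organs (limma F test, adjusted p below the threshold for 6 of 6), as did 99.7% of the miRNAs tested. The standard deviation of the log2 signal over organs was 1.61 for miR-99a, 1.58 for miR-125b-5p and 1.41 for miR-100. It was 1.33 for miR-125a-3p, 1.17 for miR-125a-5p and 1.13 for miR-99b, and the median of all miRNAs tested was 1.05. Within organs, the median standard deviation over the 3 rats was 0.14 to 0.21 for the members other than miR-125a-3p, which was at the floor on 124 arrays. miR-99a and miR-125b-5p were each detected on 164 arrays, that is on all but 1, miR-125a-5p on 155, miR-100 on 147, miR-99b on 140 and miR-125a-3p on 22.

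miR-99a, which is encoded with let-7c, was highest in the epididymis, where it reached 3405, 3412 and 3530 (3449 ± 70.0, SD, n = 3 rats). It was 2028, 2109 and 2137 in the ischial nerve and 1909, 2075 and 2213 in the prostate outside its ventral part. All 3 arrays of the epididymis lay above every array of the ischial nerve, whereas the ischial nerve and the prostate overlapped. Against the mean of the other organs it was higher in the epididymis by 2.46 on the log2 scale (1.54 to 2.49 over the alternative settings), where 32.8% of the miRNAs tested were called higher. At the low end, miR-99a was 50.0, 53.0 and 90.8 in the jejunum and 40.1, 51.8 and 58.5 in the cecum. It stood at the floor on all 3 arrays of the rectum, although 2 of them were called detected. The epididymis was 318-fold above this floor. Of the 54 pairs of neighbours in the order of organs, the arrays of 50 overlapped for miR-99a and miR-125b-5p each, and of 51 for miR-99b, miR-100 and miR-125a-5p each.

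miR-125b-5p, the miR-125 encoded at 2 of the loci, was highest in the thalamus, with 7210, 8111 and 8417 (7913 ± 627). It was 7415, 7783 and 8458 in the pectoral spinal cord, and 7560, 7972 and 7987 in the optic nerve. These 3 organs of the nervous system overlapped and had no order among themselves. The thalamus lay 1.97 above the other organs on the log2 scale (limma, adjusted p = 1.25e-21), where 39.4% of the miRNAs tested were higher. Over the alternative settings this difference stayed called but ran from 0.59 with arrays scaled over all miRNAs of the design to 3.99 with quantile normalization. Outside the nervous organs compared below, miR-125b-5p was high in the eyeball, with 6405, 6875 and 7119, and in the epididymis, with 6679, 6700 and 6703, and these overlapped. It was lowest in the jejunum with 180, 186 and 378, the duodenum with 91.4, 198 and 224, and the rectum with 34.9, 37.2 and 44.9. The rectum was detected on 3 of 3 arrays, lay below both other organs on every array and was 204-fold below the thalamus.

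miR-100, encoded with let-7a, was highest in the pectoral spinal cord, with 840, 894 and 1026 (920 ± 95.9), and in the cervical spinal cord, with 774, 861 and 904. The testis came next by mean, with 563, 672 and 712, and overlapped the lumbar spinal cord, with 492, 605 and 784. The testis lay 2.11 above the other organs on the log2 scale, where 39.1% of the miRNAs were called higher. Without scaling of the arrays the call in the testis was lost (0.62, limma, adjusted p = 0.099), and with arrays scaled over all miRNAs of the design the difference was 0.81. The pectoral cord lay 2.63 above the other organs (limma, adjusted p = 2.63e-27; 1.73 to 2.83 over the alternative settings), where 33.9% of the miRNAs were called higher. The pectoral and cervical cord overlapped, and both lay above every array of the testis. In the jejunum miR-100 was 20.3, 22.5 and 44.6 and was detected on 1 of 3 arrays. In the duodenum (10.8, 24.2 and 28.7) and in the rectum, where all arrays stood at the floor, it was not well above background. The pectoral cord was at least 84.6-fold above the rectum.

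Of the members from the cluster that spans 696 bases, miR-99b was highest in the pituitary gland and miR-125a-5p in brain regions. miR-99b was 192, 207 and 211 in the pituitary gland (204 ± 9.90), which all lay above its 164, 185 and 190 in the cerebellum. The thalamus, with 136, 159 and 224, overlapped both. The pituitary gland stood 1.79 above the other organs on the log2 scale (limma, adjusted p = 1.34e-22), where 35.4% of the miRNAs were called higher. This difference stayed called over the alternative settings and ran from 0.65 with normexp, another background correction, to 2.29 without scaling. miR-99b was not well above background in the ventral prostate (10.8, 16.9 and 24.0) and in the duodenum (10.8, 17.6 and 18.0). The pituitary gland was at least 7.10-fold above the duodenum. In the rectum miR-99b stood at the floor on 3 arrays, of which 2 were called detected.

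miR-125a-5p was 656, 670 and 687 in the cerebral cortex (671 ± 15.4), 604, 635 and 771 in the thalamus, and 598, 666 and 686 in the cerebellum. These 3 brain regions overlapped. The cortex lay 2.10 above the other organs on the log2 scale (limma, adjusted p = 3.45e-23; 1.26 to 2.58 over the alternative settings), where 34.5% of the miRNAs were called higher. The lowest organs by mean signal were the ventral prostate with 44.8, 44.9 and 58.0, the duodenum with 20.9, 57.2 and 61.1, and the rectum with 20.6, 23.7 and 32.0. The ileum, with 26.2, 56.8 and 71.2, overlapped the ventral prostate and was below it by mean log2 signal. The rectum was detected on 3 of 3 arrays and was 26.9-fold below the cortex. The pancreas, with 34.5, 82.8 and 96.9, was not well above background on any of its 3 arrays, and the cortex was at least 3.50-fold above it.

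miR-125a-3p, the arm with a seed of its own, had its signal in the pancreas. There it was 4494, 8779 and 5343 in rats 4, 5 and 6 (6206 ± 2269), and it was detected on all 3 arrays. It was 48.3, 317 and 184 in the parotid gland of the same rats, with 2 of 3 arrays detected, and 29.6, 30.9 and 33.7 in the thymus, with 3 of 3. No array of another organ exceeded 317. Of the 162 arrays of the other organs, 19 were detected. The mean log2 signal was 12.54 in the pancreas and 3.68 on these arrays, and the pancreas was at least 549-fold above the cortex, where miR-125a-3p was not well above background. All 4 probe sequences of miR-125a-3p were highest in the pancreas, with signals between 382.8 and 17000. Before scaling, the pancreas had 256.2, 375.2 and 171.6 and the parotid gland 24.2, 91.2 and 29.2, so the order of these organs held without the scaling factor. The pancreas was called higher than the other organs (limma, adjusted p = 3.74e-67), where 41.2% of the miRNAs were called higher. This call was kept without scaling of the arrays. Most arrays of the other organs stood at the floor, so that the size of this difference is set by the floor and is not given. Arrays at the floor add no spread between rats (median SD within organs 0), so the spread behind this p is narrowed by the floor.

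miR-125a-3p was also called higher than the other organs in the parotid gland (27% of the miRNAs were called higher there), the thymus (27.8%), the duodenum (34.2%), bone marrow (29.9%) and the cecum (28.1%). The sizes of these differences are set by the floor of the other organs and are not given, and the spread behind the calls is narrowed by it. Duodenum, bone marrow and cecum were detected on 0, 1 and 1 of 3 arrays. Before scaling, the duodenum had 7.94, 5.31 and 8.41, below the 12.2, 12.0 and 13.0 of the lung, which was set to the floor. The duodenum was multiplied by 3.539 and the lung by 0.3843. Bone marrow, multiplied by 3.315, had 7.892, 5.479 and 10.05 before scaling, also below the lung. The thymus, multiplied by 1.873, had 22.99, 16.1 and 13.78 before scaling. These overlapped the 18.75, 17.61 and 15.19 of the cerebellum, which was multiplied by 0.5654 and set to the floor. The calls in duodenum, bone marrow and thymus were therefore not read. The call in the cecum rested on rat 4, whose 88.3 stood against 2 arrays at the floor, and without rat 4 it turned lower (limma, adjusted p = 0.00648). miR-125a-3p was called lower in 0 organs. Of its 54 pairs of neighbours 53 overlapped, as most stood at the floor.

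Counted over single organs, miR-99a was called higher than the other organs in 32, lower in 13 and not called in 10. These counts were 26, 25 and 4 for miR-99b, 23, 20 and 12 for miR-100, 23, 26 and 6 for miR-125a-5p, and 25, 18 and 12 for miR-125b-5p. Over all miRNAs and organs, 23.4% of the pairs were called higher and 50.6% lower. In the rectum the 5 members other than miR-125a-3p were all called lower, where 58.3% of the miRNAs tested were called lower. The difference was -5.84 for miR-125b-5p and -2.74 for miR-125a-5p on the log2 scale. miR-99a, miR-100 and miR-99b stood at the floor on all 3 arrays of the rectum, so that the sizes of their differences are set by the floor and are not given.

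After scaling, the members of one family lay on opposite sides of the other organs in the adrenal gland and the liver. In the adrenal gland the members from the cluster of let-7e were higher than in the other organs, by 1.42 for miR-99b (151, 157 and 167) and by 1.27 for miR-125a-5p on the log2 scale. There miR-99a (283, 331 and 443) was lower by 0.92, miR-100 (42.6, 47.7 and 70.7) by 1.58 and miR-125b-5p by 1.29. All 5 were called by limma, where 22% of the miRNAs tested were higher and 51% lower. In the liver miR-99a (1196, 1226 and 1314) was higher by 0.96, while miR-100 (52.4, 63.8 and 87.8) was lower by 1.23 and miR-99b (16.9, 21.6 and 23.4) was not well above background. In the liver 20.6% of the miRNAs were called higher and 54.8% lower. The scaling multiplied the liver by 4.066 and the adrenal gland by 0.7003. Before scaling, miR-99a was 281.5, 313.7 and 329.6 in the liver and 385.9, 459.2 and 706.6 in the adrenal gland. The liver then lay below every array of the adrenal gland, and below the 741.7, 883.1 and 903.6 of the atrium. After scaling the liver lay above both. The sides of miR-99a in the liver and the adrenal gland therefore depend on the scaling factors and were not read. Tested differences without scaling are not given.

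Organ types were then compared, with the 55 organ means as the units, so that the spread between organs entered the test. In the nervous system (brain regions, medulla, spinal cord, optic and ischial nerve, 10 organs), 4 of the 6 members were higher than in the other organs and 0 were lower, beside 29.6% and 13.6% of all miRNAs tested. Bulk RNA of this kind cannot tell fewer cells of a type from less miRNA per cell. miR-125b-5p ranged from 2394 to 8520 on the 30 arrays of the nervous system (median 7053) and from 34.9 to 7119 on the 135 other arrays (median 1919). It was higher by 2.03 on the log2 scale (SE 0.48, limma, adjusted p = 0.000334). Over the alternative settings this difference ran from 1.26 to 3.53.

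miR-100 ranged from 147.8 to 1026 in the nervous system (median 450.2) and from the floor to 712 elsewhere (median 146.8), and it was higher by 1.93 (SE 0.42). miR-125a-5p ranged from 178.8 to 771.5 (median 497.5) against 20.6 to 451.7 elsewhere (median 113.8), a difference of 1.87 (SE 0.32). miR-99b ranged from 86.5 to 224.4 (median 154.5) against the floor to 211.2 (median 46.3), a difference of 1.55 (SE 0.33). For these 4 members the arrays overlapped, but all 10 organs of the nervous system lay above the median of the other organs. The adjusted p of limma were 1.01e-04 for miR-100, 1.52e-06 for miR-125a-5p and 1.01e-04 for miR-99b. Over the alternative settings, the difference ran from 1.07 to 2.57 for miR-100, 1.07 to 2.49 for miR-125a-5p and 0.34 to 2.10 for miR-99b.

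miR-99a was not called in the nervous system, with a difference of 1.20 (SE 0.54, limma, adjusted p = 0.0649), and neither was miR-125a-3p (-0.47, SE 0.46). Over the alternative settings the difference of miR-99a ran from 0.44 to 1.87, and it was called without scaling of the arrays (adjusted p = 0.0112 in limma) and among miRNAs detected on at least 50% of the arrays (adjusted p = 0.0485 in limma), as well as in both fits over single arrays. The nervous set held its own markers, since both oligodendrocyte markers (miR-219-5p and miR-338) and both neuron markers (miR-124 and miR-9) were higher there. Their summed signal for oligodendrocytes was 1315 to 5814 in the nervous organs and 27.97 to 248.3 in the others. For neurons it was 71.66 to 13860 in the nervous organs and 21.67 to 11390 in the others, with overlap. All 3 epithelial markers, both smooth muscle markers and 2 of 3 leukocyte markers (miR-142-3p and miR-223) were lower in the nervous system. Of the 2 islet and pituitary markers miR-375 was lower there, and miR-7a was not called (0.93). The summed signal of the smooth muscle markers was 293.8 to 1842 there and 127.9 to 25870 in the others. The part of cell composition in the members' differences was not tested. With arrays scaled over all miRNAs of the design, only miR-125a-5p was called in this set (beside 41.2% of all miRNAs), and with a background correction by normexp miR-99b was not (0.34, beside 25.2%).

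In the intestinal mucosa (scraped epithelium of 6 organs from the duodenum to the rectum), 5 of 6 members were lower and 0 were higher, beside 4.64% and 16.8% of all miRNAs tested. miR-99a ranged from the floor to 93.4 on the 18 intestinal arrays (median 55.7) and from 88.7 to 3530 on the 147 others (median 943.9). The ranges met only where the thymus (88.7, 101 and 110) reached the highest intestinal arrays. The difference was -4.24 (SE 0.39, limma, adjusted p = 1.81e-13). miR-125b-5p ranged from 34.9 to 767.5 (median 301.1) against 390.0 to 8520 (median 2673), with a difference of -3.53 (SE 0.48, adjusted p = 3.53e-08 in limma).

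miR-100 was called lower in the intestine, with a median of 27.9 against 199.2. Of the members from the cluster of let-7e, miR-125a-5p had -1.76 (SE 0.44), and miR-99b was called lower as well. miR-100 was not well above background in the duodenum and the rectum, and miR-99b in the duodenum and the ileum. The fitted differences of miR-100 (-2.94) and miR-99b (-1.82, SE 0.42) are therefore limited by the background, and their sizes were not read. miR-125a-3p was not called (0.29, SE 0.57). The rectum did not carry these calls, since all 5 were made without it, at -3.82 for miR-99a and -3.01 for miR-125b-5p. With normexp, 3 members were called beside 9.57% of all miRNAs, and miR-99b (-0.26) and miR-125a-5p (-0.74) were not. With a floor 4 times as high, 4 members were called beside 16.8% of all miRNAs, and miR-99b was not (-0.84, limma, adjusted p = 0.0589).

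Beside these differences, all 3 epithelial markers of the miR-200 family were higher in the scraped mucosa, with a sum of 9430 to 18140. The endothelial marker miR-126 was lower by 1.60, with 54.94 to 585.8 in the intestine against 189.1 to 4330 elsewhere, and was lowest in the rectum. Of the 3 leukocyte markers only miR-142-3p was called higher, by 2.73. Of the 2 islet and pituitary markers only miR-375 was, by 3.82. The 2 smooth muscle markers (miR-143 and miR-145) were not called, with a sum of 247 to 4620 against 127.9 to 25870. Their part in the members' values was not tested.

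**Figure D1:**
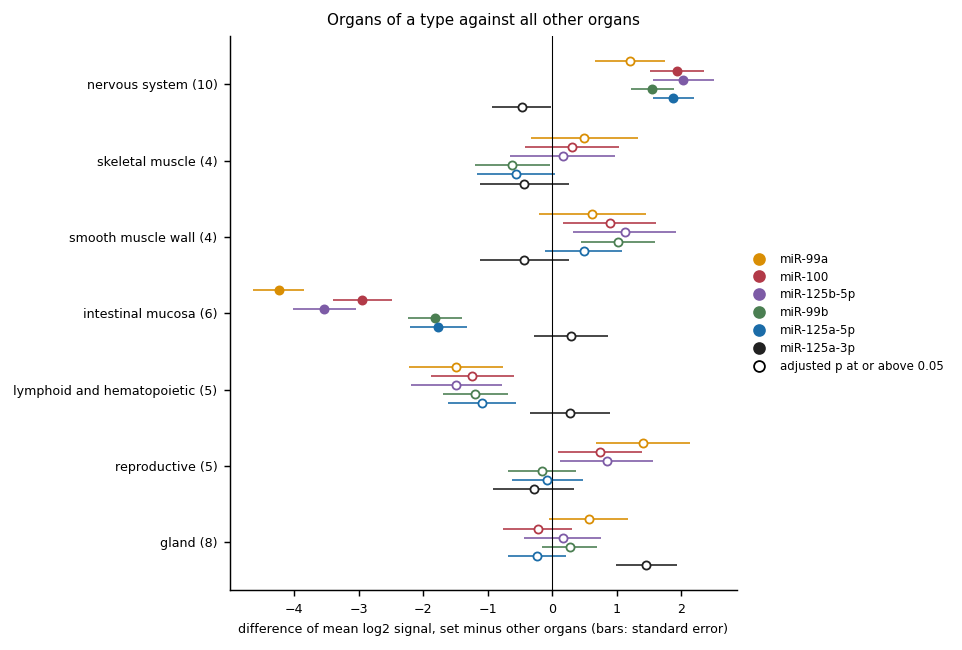
Difference of log2 signal between the organs of each type and all other organs for the 6 members, with its standard error (limma on organ means). In the nervous system 4 members were called higher, in the intestine 5 were called lower, and 0 were called in the other 5 types.

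In the other organ types 0 of the 6 members were called by limma. In skeletal muscle the median difference of the members was -0.135, beside -0.239 for all miRNAs, with 4.64% of all miRNAs called higher and 0.58% lower. It was 0.752 beside -0.384 in organs with a wall of smooth muscle (0.58% higher and 0% lower), and 0.331 beside -0.102 in reproductive organs (8.41% and 0%). In lymphoid and hematopoietic organs it was -1.22 beside -0.193 (14.5% and 3.19%), and the 5 members other than miR-125a-3p had differences between -1.49 and -1.09 with limma's adjusted p from 0.105 to 0.232. In glands it was 0.215 beside -0.00217 (4.35% and 0.58%), where miR-125a-3p had a difference of 1.46 (limma, adjusted p = 0.0576).

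Within the nervous system, miR-100 and miR-125a-5p had differences of opposite sign. The 3 levels of the spinal cord were compared with cortex, hippocampus, thalamus and cerebellum, and 3 members were higher in the spinal cord and 1 was lower, beside 21.2% and 26.4% of all miRNAs. miR-100 was 492.4 to 1026 on the 9 arrays of the spinal cord (median 839.8) and 147.8 to 395.2 on the 12 arrays of the brain (median 312.7). The groups did not overlap, and the spinal cord was 2.69-fold higher (log2 difference 1.43, SE 0.13, limma, adjusted p = 1.02e-17).

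miR-99a was higher in the spinal cord by 0.59 (SE 0.11), with overlapping arrays (1246 to 2221 against 589.5 to 1329). miR-125b-5p was higher by 0.45 (SE 0.12, limma, adjusted p = 0.000861), also with overlap. miR-125a-5p moved the other way, with 285.3 to 485.5 in the spinal cord and 591.9 to 771.5 in the brain. These groups did not overlap, and the difference was -0.67 (SE 0.12, limma, adjusted p = 1.31e-06). let-7e, its neighbour in the cluster, was lower by 0.65 as well, whereas miR-99b of the same cluster was not called (0.03, SE 0.11), although it was with quantile normalization (0.26, limma, adjusted p = 0.0291, beside 44.1% of all miRNAs). Without scaling the calls of miR-99a (0.37) and miR-125b-5p (0.23) were lost, and with quantile normalization the latter was 1.63. In the same comparison both oligodendrocyte markers were higher in the spinal cord (miR-219-5p by 1.43 and miR-338 by 1.55) and both neuron markers were lower. Higher in the spinal cord as well were 2 of 3 leukocyte markers (miR-142-3p and miR-223) and the endothelial marker miR-126. So were 1 of 2 erythroid markers (miR-451) and 1 of 2 striated muscle markers (miR-1). Of the 2 islet and pituitary markers miR-7a was lower. The part of these cell types in the members' differences was not tested.

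Atrium and septum of the heart were compared with 3 limb muscles, where 2 members were higher and 0 lower, beside 10.1% and 22% of all miRNAs. miR-125a-5p was 182.8 to 204.6 on 6 arrays of the heart and 76.2 to 144.8 on 9 arrays of limb muscle, without overlap (log2 difference 0.85, SE 0.15, limma, adjusted p = 3.74e-07). miR-99b was 50.3 to 59.1 in the heart and 24.7 to 54.1 in limb muscle (0.48, SE 0.13, limma, adjusted p = 0.00108). With normexp 0 members were called beside 22.6% of all miRNAs, and miR-99b turned to -0.30. miR-100 was not called (0.39, SE 0.16, limma, adjusted p = 0.0511), but was with the rat as a block (adjusted p = 0.0447 in limma). It was called in 11 of 19 alternative settings, and over these settings its difference ran from 0.05 with normexp to 1.39 with arrays scaled over all miRNAs. Between the soleus, a slow muscle, and the gastrocnemial muscle 0 members were called, beside 1.16% higher and 8.99% lower of all miRNAs.

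Between the large and the small intestine, 2 members were called higher in the large intestine and 1 lower, beside 5.8% and 34.5% of all miRNAs. miR-99a was lower by 0.92 on the log2 scale, and this call rested on the rectum, without which the difference was -0.09 (limma, adjusted p = 0.876). miR-99b was higher by 0.49 (SE 0.11) and miR-125a-5p by 0.35 (SE 0.13), but both turned lower with normexp (-0.999 and -0.84), which shifted the median of all miRNAs by -1.023 and called 95.7% of them. The call of miR-99b was lost without rat 4 (0.33), and that of miR-125a-5p without rat 4 (0.19) or rat 6 (0.33). That of miR-99b was also lost with a floor 4 times as high, below which all its intestinal arrays lay. Under this floor 2 members were called, beside 33.2% of all miRNAs. Without the rectum, these were 1.04 and 1.00, and miR-100 (0.61) and miR-125b-5p (1.24) were called higher as well. The share of all miRNAs called without the rectum is not given, so these calls were not read as particular to the members. miR-125b-5p was 439.9 to 768 on the arrays of the cecum and colon, 91.4 to 557.7 in the small intestine, and 34.9 to 44.9 in the rectum. Beside this, 1 of 2 smooth muscle markers and 2 of 3 leukocyte markers were lower in the large intestine, as were both oligodendrocyte markers and miR-7a, and their part was not tested.

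Between bone marrow and spleen, 1 member was higher in bone marrow and 1 lower, beside 24.9% and 10.1% of all miRNAs. miR-99a was 277.0, 289.1 and 346.4 in bone marrow and 404.9, 421.0 and 505.7 in the spleen, without overlap (-0.55, SE 0.20, limma, adjusted p = 0.0203). miR-125a-3p was 18.1, 18.9 and 42.2 in bone marrow, with 1 of 3 arrays detected, and at the floor in the spleen. Its fitted difference (1.17, SE 0.31) is therefore set by the floor, and its size was not read. The call of miR-99a was lost without rat 4 (-0.38) or rat 5 (-0.57), the latter at a difference no smaller than with all rats, and with normexp (-0.10). That of miR-125a-3p was lost without rat 6 (0.77), with the authors' table (0.45), with a floor 4 times as high (0) and without scaling (0.01). Both erythroid markers (miR-451 and miR-144) and 1 of 3 leukocyte markers (miR-223) were higher in bone marrow. The leukocyte markers miR-142-3p (0.27) and miR-142-5p (-0.61) were not called. In bone marrow 1 of 2 smooth muscle markers (miR-143) and 1 of 2 oligodendrocyte markers (miR-338) were lower. miR-145 (-0.73) and miR-219-5p (0.26) were not called. The smooth muscle sum was 875.9 against 2109. The part of these cells was not tested.

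**Figure D2:**
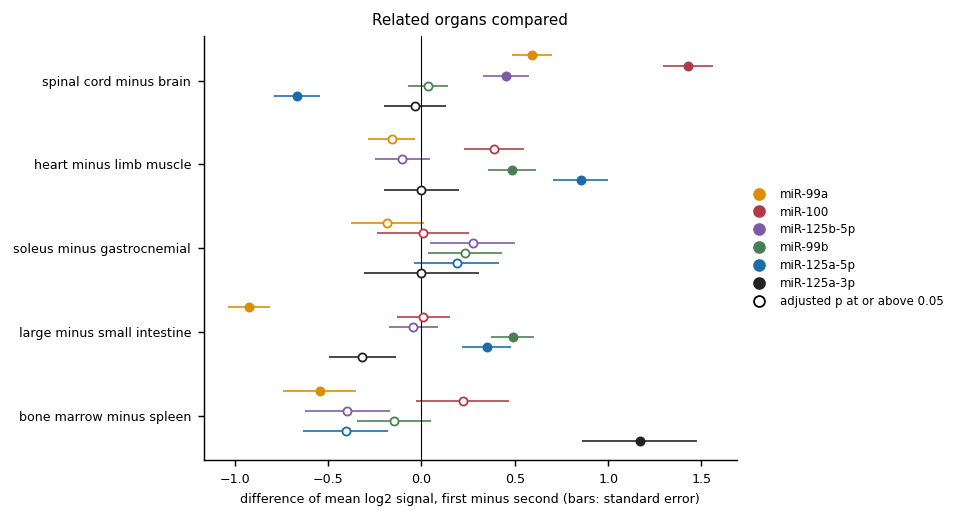
Difference of log2 signal between related organs for the 6 members, with its standard error (limma, 1 term per organ, 3 rats per organ). Between spinal cord and brain miR-100 (1.43) and miR-125a-5p (-0.67) lie on opposite sides of 0.

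The arms of miR-125a were compared through the difference of their log2 signals on the same array. As the probes of the arms differ, the zero of this difference has no meaning, and only its change between organs was read. Its mean ran from 5.95 in the cortex, where the 3p arm was at the floor, to -6.51 in the pancreas, where the 5p arm was not well above background. Neither size is therefore a measured contrast of both arms. The parotid gland (-1.18), the duodenum (0.75) and the thymus (0.87) followed the pancreas, and of these the thymus had both arms detected on all arrays. Both arms were detected on all arrays in only 2 organs, so that the difference was set by the floor of miR-125a-3p in most organs.

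In the pancreas, the 5p arm was not well above background on any array while the 3p arm was at 4494 to 8779. In the cortex the 5p arm was at 656 to 687 and all 3 arrays of the 3p arm were at the floor. The difference between arms varied among organs (limma F test, adjusted p = 3.30e-60), as did that of 98.2% of the 55 pairs of arms tested. Its standard deviation over organs was 2.02. Values of arms at the floor or not well above background enter it, so its rank among the pairs is not given. In the nervous system the 3p arm stood at the floor on 29 of 30 arrays (highest 14.5), so that the contrast of arms there was that of the 5p arm with a term set by the floor. The fitted value of 2.34 (SE 0.63, limma, adjusted p = 0.00122, 54.5% of the pairs called) therefore measures no change of the 3p arm. In the intestine (-2.05, adjusted p = 0.0513 in limma, 29.1% of the pairs called) and in glands (-1.69, adjusted p = 0.197, 1.82%) it was not called. Neither was it in lymphoid organs (-1.36, 9.09%), smooth muscle wall (0.92, 5.45%), skeletal muscle (-0.13, 7.27%) or reproductive organs (0.22, 9.09%), and in each of these types 6 or more arrays of the 3p arm were at the floor.

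**Figure D3:**
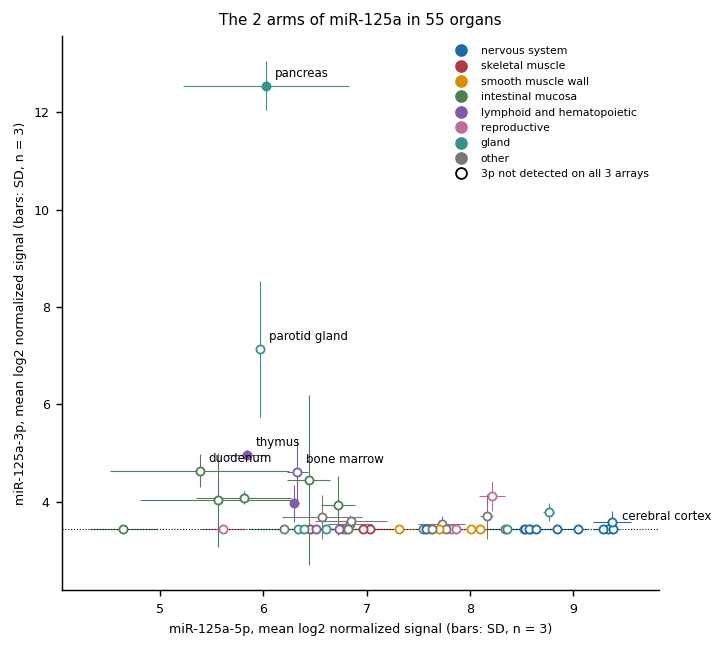
Log2 signal of miR-125a-5p against that of miR-125a-3p, with 1 point per organ (mean of 3 rats). The pancreas stands alone at high miR-125a-3p and low miR-125a-5p, and most organs lie at the floor of miR-125a-3p.

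The likeness of the members was described by Pearson's correlation of log2 organ means over 55 organs. These organs come from the same 3 rats and share the scaling, and no test was made. miR-125b-5p and miR-100 had r = 0.95, and 0.494% of the 59340 pairs of tested miRNAs had a higher value. Within single rats r was between 0.941 and 0.948, and without the intestine it was 0.925. miR-125b-5p and miR-99a had r = 0.881, which was 0.733 without the intestine. miR-125a-5p and miR-99b, of one cluster, had r = 0.932.

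For miRNAs that share a seed but come from different clusters, r was 0.831 for miR-99a and miR-100 (0.68 without the intestine), 0.763 for miR-125a-5p and miR-125b-5p (0.673), 0.749 for miR-99b and miR-100 (0.628), and 0.62 for miR-99a and miR-99b (0.40). The median of all pairs was -0.00963. The arms of miR-125a had r = -0.301, which turned to 0.262 with normexp.

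let-7e, of the cluster with miR-99b and miR-125a, had r = 0.974 with miR-125a-5p and 0.912 with miR-99b, and it was the nearest miRNA outside the members for miR-99a (0.588), miR-99b, miR-100 (0.737), miR-125a-5p and miR-125b-5p (0.789). miR-218 and miR-328a came next for miR-99b (0.759 and 0.708) and for miR-125a-5p (0.813 and 0.791). miR-338 and miR-218 came next for miR-100 (0.694 and 0.641), and miR-218 and miR-338 for miR-125b-5p (0.652 and 0.639). For miR-99a, let-7c followed (0.586). let-7a, which has further copies in the genome, had r = 0.535 with miR-100 and 0.58 with miR-125b-5p, and let-7c had 0.607 with miR-125b-5p.

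let-7e was higher in the nervous system by 1.81 on the log2 scale and lower in the intestine by 1.80 (limma, adjusted p = 7.43e-06 and 0.00169). let-7a was higher in the nervous system by 0.42 and lower in the intestine by 0.47, both called. let-7c was higher in the nervous system by 0.58 and was not called in the intestine (-0.41). Since let-7a and let-7c were among the miRNAs that set the scaling, it acts on their values and r, and its part was not tested. Of the opposite arms on the array, miR-99a* was detected on 33 arrays, miR-99b* on 3 and the others on 0. The 3 arrays of the pancreas had a mean of 316 for miR-99b*, with 2 of 3 detected, while 1 of the 162 arrays of the other organs was detected.

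The nearest miRNAs to miR-125a-3p were miR-370 (0.95), miR-3562 (0.943) and miR-678 (0.929). Of the miRNAs with r above 0.9 to it there were 8, and all 8 were highest in the pancreas after scaling, as were 65 of the 345 miRNAs tested. miR-370, miR-3562 and miR-678 were detected on 39, 8 and 5 arrays, and miR-125a-3p was at the floor on 124. These r therefore rest largely on the pancreas and on values at the floor. Before scaling, miR-3562 was 14.72 in the pancreas and was highest in the skin (33.82). miR-370 had a mean of 9987 in the pancreas and 71.2 in the parotid gland. Over organs, r with the log2 scaling percentile of the arrays was -0.69 for miR-125a-3p and between 0.03 and 0.46 for the other members, and its part in these values was not tested. Acinar markers of the pancreas were in place there, as miR-216a (5773) and miR-217 (3311) were highest in this organ.

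Perfusion was compared in the 5 organs with both sampling conditions, over 189 miRNAs that included the members other than miR-125a-3p. Of these 5 members 0 were called by limma in any of the organs, beside 0% of all miRNAs in each organ, and 0 of them had an unadjusted p below 0.05 (1.59% to 6.35% of all miRNAs, depending on the organ). For every member the perfused and the non-perfused rats overlapped in each organ, where 3.17% to 7.41% of all miRNAs did not overlap. The largest difference was that of miR-125b-5p in the lung, with 1393 ± 92.9 in perfused and 1625 ± 200 in non-perfused rats (-0.22 on the log2 scale, SE 0.13, limma, adjusted p = 0.958). An absence of calls with 3 rats per condition does not show that the conditions were alike.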

How the data were processed

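Total RNA was hybridized to single-dye rat miRNA arrays that carry probes of miRBase 15.0 and 16.0. The authors deposited the scanner software's output (Agilent Feature Extraction 10.7.3), with a background-corrected signal intensity and flags per spot, and a table of normalized intensities, each the software's total signal multiplied by 1 factor per array (0.411 to 10.46). Spots flagged as outliers (1.63% to 6.42% per array) were left out, the others were averaged per probe sequence and then per miRNA, divided by the array's 75th percentile among 37 miRNAs that every one of the 180 arrays detected, multiplied by 2118, floored at 10.83 and log2-transformed. A miRNA was tested when some group had it detected on its 3 arrays, two-sided, in limma 3.58.1 (R 4.3.3) with Benjamini-Hochberg adjustment. For organ types the fit used organ means. For the normexp alternative, median foreground and background signals were used. Figures were drawn with matplotlib 3.10.9. The number of arrays per organ limits the precision.

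Organs named are, per member, the 3 highest and 3 lowest, those of the comparisons, and liver, adrenal gland, thymus and parotid gland, which were chosen after their values were seen. The members and lists were chosen with earlier results of these data known. A rat number marks 1 animal, which pairs the arrays. Residuals within a rat correlated at 0.0285 on average (0.0261, 0.0257 and 0.0336 for rats 4, 5 and 6) and those of different rats at -0.0141. Alternatives changed the scaling, background, floor, probe summary, filter, block, slide and arrays used. The sequences are those of RefSeq (GRCr8), whose coordinates were not used for the arrays.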

Additional observations from a re-analysis of the deposited data

How the results depend on the processing

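The 6 calls over 55 organs, the F test of the miR-125a arms and the counts of 0 under perfusion were kept under every alternative in which they were computed, except that miR-125a-3p was not tested among miRNAs detected on at least 50% of the arrays, where 5 of 5 members were called. Other scalings moved the median difference of all miRNAs by over 0.1, most in bone marrow against spleen (-0.556 with arrays scaled over all miRNAs of the design) and in the nervous system (-0.619), and values of members moved with it. The alternatives without the rectum, without the pancreas and without scaling were added after seeing the data. For values with no call in either fit no direction was read, and 144 of 1386 such values had the other sign over 25 settings. Larger changes follow, and the cause was not tested.

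With the authors' table, 1 member was called in organs with a smooth muscle wall (4.65% of all miRNAs were called under the same setting, as in the brackets that follow), 1 in glands (5.23%), 5 between heart and limb muscle (42.7%, with miR-99a at 0.53 and miR-125b-5p at 0.59, both reversed), 1 between soleus and gastrocnemial (6.98%), 5 between large and small intestine (29.7%, miR-125b-5p reversed to 0.52) and 4 between bone marrow and spleen (34%). r was 0.960 for miR-125b-5p with miR-100 and -0.492 for the miR-125a arms. With arrays scaled over all miRNAs, 1 member was called in the nervous system (41.2%), where miR-99b (0.76), miR-100 (1.17) and miR-125b-5p (1.26) were not called, 1 in smooth muscle wall (5.51%), 5 between heart and limb muscle (46.1%, miR-99a 0.84 and miR-125b-5p 0.90, both reversed), 3 between soleus and gastrocnemial (8.12%), and 6 between bone marrow and spleen (34.5%, miR-100 reversed to -0.76). miR-125b-5p was reversed to 0.55 between large and small intestine, and r was 0.959 for miR-125b-5p with miR-100, 0.955 for miR-125a-5p with miR-99b and -0.439 for the arms. With quantile normalization, 1 member was called in glands (5.8%), 5 between spinal cord and brain (44.1%, with miR-99b at 0.26), 5 between large and small intestine (29.9%, miR-125b-5p reversed to 0.55) and 4 between bone marrow and spleen (34.5%), and r was 0.887 for miR-125b-5p with miR-100 and -0.438 for the arms.

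With normexp, 154 pairs of member and organ were called (237 in the main fit, beside 37.6% and 73.9% of all pairs), 3 members in the intestine (9.57%), 0 between heart and limb muscle (22.6%), 6 between large and small intestine (95.7%) and 4 between bone marrow and spleen (91%). Reversed were, against the other organs, miR-99b in the ventral prostate (0.084) and the duodenum (1.13), miR-100 (0.39) and miR-125a-5p (0.51) in the duodenum and miR-125a-3p in the cecum (-0.077). Between heart and limb muscle miR-99b was reversed (-0.30), between large and small intestine miR-99b (-0.999), miR-100 (-1.06) and miR-125a-5p (-0.84), and between bone marrow and spleen miR-99b (1.25) and miR-125a-5p (0.70). r was 0.765 for miR-125b-5p with miR-100, 0.80 for miR-125a-5p with miR-99b and 0.262 for the arms.

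With a floor 4 times as high, 1 member was called in glands (5.18%), 4 in the intestine (16.8%) and 1 between bone marrow and spleen (29.3%), and r was 0.896, 0.892 and -0.193 for the same pairs. This floor also left 2 calls between large and small intestine (33.2%) and 3 between heart and limb muscle (20.1%). With a floor 4 times as low, 5 were called between large and small intestine (51.6%), with miR-100 reversed to -0.37, and r was 0.963 for miR-125b-5p with miR-100. With the scanner's total signal 1 member was called in glands (5.8%) and r was -0.538 for the arms. With miRNAs detected on at least 50% of the arrays, 1 member was called between bone marrow and spleen (60.4%). With 1 term per organ over arrays, which leaves out the spread between organs, 5 members were called in skeletal muscle, 6 in smooth muscle wall, 6 in lymphoid organs, 5 in reproductive organs and 6 in glands (beside 89.9%, 92.2%, 91%, 84.9% and 89.3% of all miRNAs under that fit). These counts were 5, 6, 6, 5 and 6 with the rat as a block (beside 90.1%, 92.2%, 91%, 84.3% and 89%). Of 123 other values the block changed 1 call, that of miR-100 between heart and limb muscle.

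With a rat left out in turn, 0 to 1 members were called in glands (3.56% to 6.69%), 1 between bone marrow and spleen (27.9% to 31.5%), 2 to 3 between large and small intestine (32.2% to 40.4%) and 2 to 3 between heart and limb muscle (26.2% to 29.3%), and miR-125a-3p in the cecum ranged from -0.40 upward. Without the rectum, miR-125b-5p between large and small intestine was reversed to 1.24. Without the pancreas, r was 0.959 for miR-125a-5p with miR-99b. Without scaling, 1 member was called in glands (4.35%), 2 between spinal cord and brain (42.9%), 4 between heart and limb muscle (32.2%, miR-125b-5p reversed to 0.71), 5 between large and small intestine (38%, miR-99a 0.27, miR-125a-3p 0.36 and miR-125b-5p 1.29, all reversed) and 5 between bone marrow and spleen (35.4%, miR-100 reversed to -1.82), and r was 0.971 for miR-125b-5p with miR-100 and 0.974 for miR-125a-5p with miR-99b. For dim members, values near the floor limit what can be compared.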
